A study of Mus musculus with 12 samples.

Results

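Interferon response genes are the receptors, transcription factors and induced effectors through which cells answer interferons, and 39 mouse genes of this kind were followed across normal intestine and intestinal tumors. The 39 genes were listed with earlier results of these data known. All probe sets that the annotation of the Affymetrix MG_U74Av2 oligonucleotide array gives to a listed gene were taken, whatever their values. Of the 39 genes, 33 had a probe set of their own (38 probe sets of the 12488 on the array), and 30 were bright enough to be tested. Eif2ak2, Ifit2 and Mx1 were measured but lay below the brightness filter, Gbp4 and Tgtp1 were present only on probe sets that also match Gbp8 and Tgtp2, and Stat2, Irf2, Oas1a and Oasl2 had no probe set in the annotation.

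Tissue came from male mice, 91 days of age, that all carried the Min mutation of one Apc allele (Min/+), which gives intestinal adenomas, so there was no group without that allele. The design crossed tissue (normal intestine or tumor) with 3 numbered diets and with the genotypes Dnmt+/- and Dnmt+/+, with 1 array for each of the 12 combinations. Each tissue therefore had 6 arrays, each diet 4 and each genotype 6. A sample code links 1 normal to 1 tumor array at each setting of diet and genotype, giving 6 code pairs. The labels name neither the DNA methyltransferase gene, nor the content of a diet, nor the number of animals behind a code or a tumor sample. The p-values below thus measure the spread between these samples, which may in part be technical, and precision is limited by the small number of arrays.

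Type I interferons bind a receptor of the subunits Ifnar1 and Ifnar2, and interferon gamma binds Ifngr1 and Ifngr2. Kinases of the Jak family on these receptors start the signal. A complex that contains Irf9 then binds interferon-stimulated response elements, and gamma-activated sites serve the response to interferon gamma. In the intestine, epithelial and immune cells both respond to interferons, and the induced proteins are known for restricting viruses, bacteria and protozoa inside cells.

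Most of the interferon genes that differed between the tissues were lower in tumors, and 1 of them, Ifitm3, was higher. Of the 30 genes tested, 12 passed the threshold (adjusted p under 0.05 in a linear model over all features with tissue, diet and genotype as terms), 11 lower and 1 higher in tumors. Over all 6400 features tested, 35.2% passed, 16.9% lower and 18.2% higher. An unadjusted p below 0.05 was found for 16 of the 30 genes and for 44.4% of all features. The members' share past the threshold in either direction, 40%, was thus near that of all features, while the split by direction was not. The median difference of the 30 genes, tumor minus normal, was -0.45 on the log2 scale, against 0.00153 over all features. The difference was below 0 for 24 of the 30 genes and for 49.8% of all features. The split depended in part on scaling. Median scaling gave 14 lower and 1 higher of 29 genes, with 24.2% of all features lower, and the intensities as deposited gave 9 lower and 2 higher of 29, with 11.4% of all features lower. In bulk tissue, fewer cells of a type and less RNA per cell cannot be told apart. With the sample code as a replicate block, 16 of the 30 (53.3%) passed, 15 lower and 1 higher, against 32.9% of all features (16.2% lower), and the 4 gained were Irf1, Usp18, Gbp2 and Ifnar2.

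**Figure D1:**
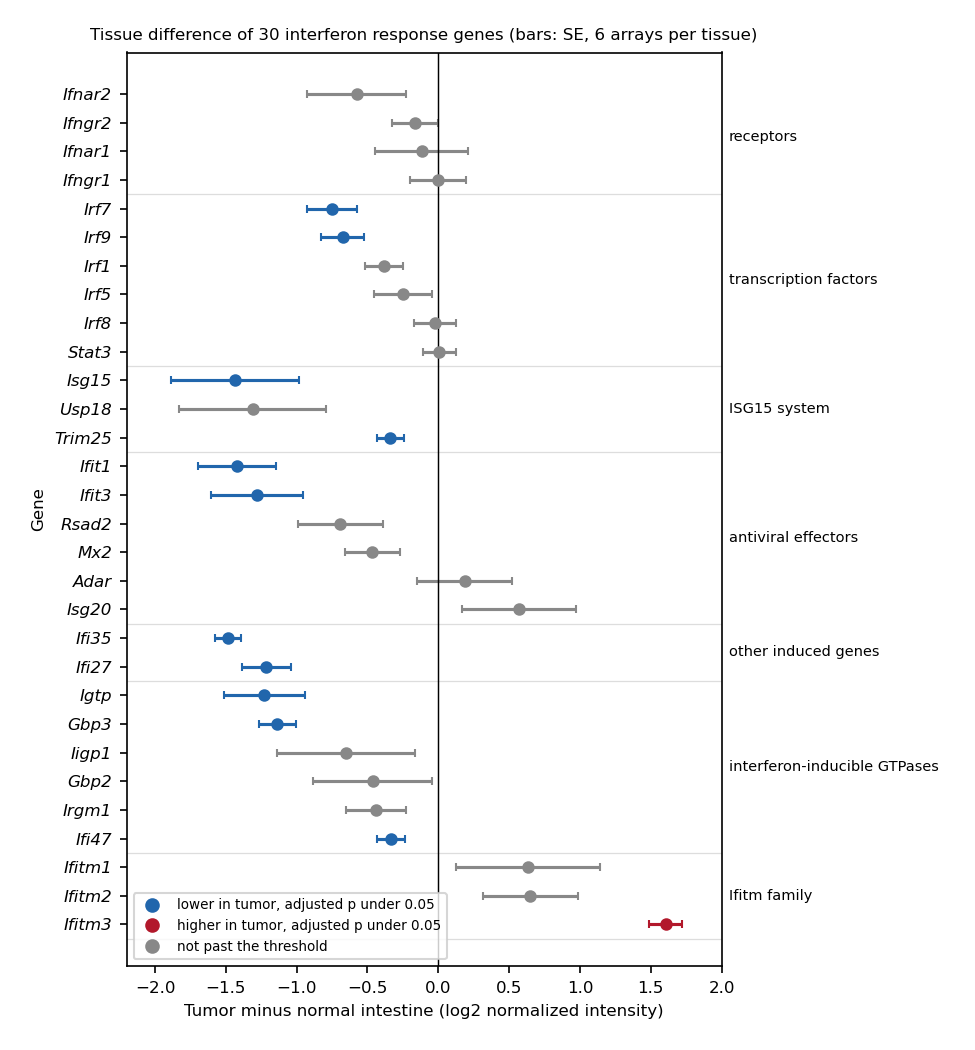
Difference between 6 tumor and 6 normal intestine arrays for each of the 30 tested genes (x axis, log2 of normalized intensity; bars are standard errors), grouped by role on the y axis. The 11 blue points lie below 0, from -1.49 for Ifi35 to -0.33 for Ifi47, and the red point is Ifitm3 at 1.61.

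The promoter sequences of these genes show where the response elements lie. RefSeq promoter windows (assembly GRCm38.p6, 250 bases before to 50 bases after a transcript start, 300 in all) were listed for 33 of the 39 genes. The interferon-stimulated response element core (GAAA, any 2 bases, GAAA) was searched on both strands and found in 15 of the 33 (45.5%), against 3.44% of all 32851 promoter windows and 3.99% of all genes with a window. The gamma-activated site TTCNNNGAA, which reads the same on both strands, was found in 14 of the 33 (42.4%), against 8.30% of all windows and 9.55% of all genes. Below are the stretches of the 6 genes past the threshold between tissues that hold a response element core, 5′ to 3′ on the strand of the gene. Capitals mark cores in either orientation, and overlapping cores form 1 longer run in Isg15 and Gbp3. The stretches of Isg15 (bases -97 to -38 from the start), Ifit1 (-119 to -60), Ifit3 (-164 to -105), Gbp3 (-57 to -18) and Igtp (-49 to -10) lie before the transcript start. That of Ifitm3 (2 to 31) lies just after it. The listed span of the Ifit3 gene begins at base 34583119 of chromosome 19, ahead of its stretch. The place of the Ifit3 cores thus holds for the transcript start of this window only.
Isg15: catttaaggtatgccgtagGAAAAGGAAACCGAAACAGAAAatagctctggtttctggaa
Ifit1: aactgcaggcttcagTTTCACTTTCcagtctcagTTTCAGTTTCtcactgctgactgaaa
Ifit3: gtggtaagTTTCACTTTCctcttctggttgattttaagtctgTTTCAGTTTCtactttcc
Gbp3: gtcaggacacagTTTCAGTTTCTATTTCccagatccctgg
Igtp: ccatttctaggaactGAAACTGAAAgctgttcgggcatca
Ifitm3: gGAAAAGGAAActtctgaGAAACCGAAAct
The positions in GRCm38.p6 are chr4:156200856-156200915 on the minus strand for Isg15, chr19:34640770-34640829 on the plus strand for Ifit1 and chr19:34583365-34583424 on the plus strand for Ifit3. They are chr3:142559987-142560026 on the plus strand for Gbp3, chr11:58199507-58199546 on the plus strand for Igtp and chr7:141010714-141010743 on the minus strand for Ifitm3.

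Isg15 holds 3 overlapping cores, Ifit1, Ifit3 and Gbp3 hold 2 each, Igtp holds 1, and Ifitm3, the gene that was higher in tumors, holds 2. Of the 10 tested genes whose window has a core, 5 were lower and 1 was higher in tumors, with a median difference of -0.91 on the log2 scale. Of the 16 tested genes whose window has none, 5 were lower and 0 higher, with a median of -0.21. For the gamma-activated site, 2 of 9 tested genes that hold it were lower and 1 was higher, against 8 lower and 0 higher of 17 without it. These groups cover the 26 tested genes with a listed window. Ifi27 (-1.21, lower in tumors), Usp18 (-1.31), Iigp1 (-0.65) and Mx2 (-0.46) have none and are in no group. The genes without a core include the receptor subunits and Stat3, and whether the medians differ was not tested. A match of letters is a description and not a bound site, and the absence of a match says only that these letters are not in this window.

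**Figure D2:**
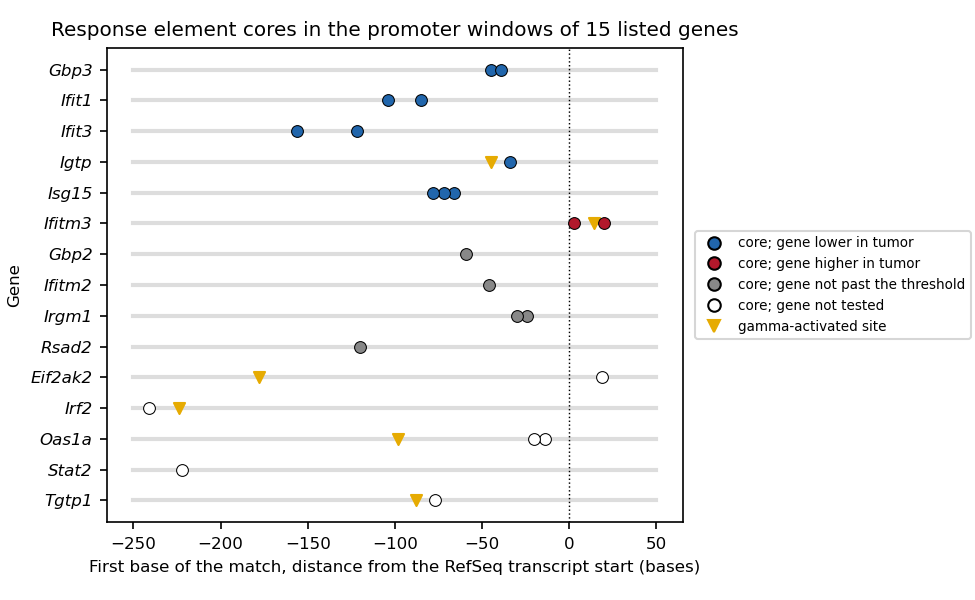
First base of each match in the promoter windows of the 15 listed genes with a response element core (x axis, bases from the RefSeq transcript start; circles are cores, coloured by the tissue call of the gene, and triangles are gamma-activated sites). The cores of the 5 genes lower in tumors all lie before the transcript start of their window, and both cores of Ifitm3 lie after it. Those of Ifit3 lie inside the listed span of that gene, and the core of Ifitm2, at -46, lies inside the listed span of Ifitm2.

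None of the 4 receptor subunits passed the threshold between tissues. Ifngr1, the ligand-binding chain of the interferon gamma receptor, had a normalized intensity of 279 to 1004 in normal intestine (median 760) and 453 to 827 in tumors (median 608). Its difference was -0.0011 on the log2 scale, with a 95% interval of -0.45 to 0.45. Ifngr2, the signalling chain, differed by -0.17 (interval -0.53 to 0.20), and Ifnar1 by -0.12 (interval -0.86 to 0.62). Ifnar2, the chain that binds type I interferon with high affinity, had a median of 183 in normal intestine and 96.4 in tumors, with overlapping ranges. Its difference was -0.58 (SE 0.35, adjusted p = 0.23). With the replicate block its adjusted p was 0.034 and with median scaling 0.024, and both arrays of its diet #1 Dnmt+/- pair were at the lowest value of those files. A second Ifnar2 probe set, below the brightness filter and not tested, differed by -0.21. There the tumor was lower in 2 pairs and higher in 3, and 1 pair had no direction. A 2-fold change was outside the intervals of Ifngr1, Ifngr2 and Ifnar1.

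Of 6 tested transcription factors, 2 were lower in tumors and none was higher. Irf7, which drives transcription of type I interferon genes, ranged from 805 to 1428 in normal intestine (median 1082) and from 548 to 841 in tumors (median 597). The ranges overlapped through diet #1, and 5 of 6 code pairs were lower in the tumor. Irf7 was 1.68-fold lower (log2 difference -0.75, SE 0.18, adjusted p = 0.0098). A second Irf7 probe set showed no overlap of the tissues, at 441 to 787 in normal intestine and 260 to 350 in tumors. In the fit of every probe set its difference was -0.90 (SE 0.16, adjusted p = 0.0023).

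Irf9, the DNA-binding subunit of the type I interferon complex, ranged from 478 to 1202 in normal intestine (median 853) and from 317 to 755 in tumors (median 495). The ranges overlapped, but the tumor was the lower array in all 6 code pairs. Irf9 was 1.60-fold lower (log2 difference -0.68, SE 0.15, adjusted p = 0.0080), and without normalization the difference was -0.54 (adjusted p = 0.051). Irf1, an activator induced by interferon gamma, had a difference of -0.38 (SE 0.14, adjusted p = 0.054). With the replicate block the adjusted p of Irf1 was 0.048, and it was also below the threshold on leaving out the normal or the tumor array of diet #1 Dnmt+/- (0.045 and 0.031) or the normal array of diet #3 Dnmt+/- (0.048). Median scaling gave Irf1 a difference of -0.60 (adjusted p = 0.0070). It passed as well with the floor at the 40th percentile (0.046), with the lowest 60% left out (0.036) and with trended variances (0.033). Irf5 (-0.25), Irf8, a regulator of myeloid cells (-0.02), and Stat3, which relays interleukin signals (0.0080), did not pass. A second Stat3 probe set gave 0.22 (adjusted p = 0.11). The interval of Stat3, -0.25 to 0.27, and that of Irf8, -0.35 to 0.31, left out a 2-fold change.

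The ISG15 system attaches and removes a ubiquitin-like protein, and 2 of its 3 tested members were lower in tumors. Isg15, the modifier itself and the promoter shown above with 3 overlapping cores, ranged from 285 to 2134 in normal intestine (median 1679) and from 47.4 to 814 in tumors (median 701). All 6 pairs were lower in the tumor, while the diet #1 Dnmt+/- arrays were the lowest of both tissues, and its tumor array was at the lowest value in its file. Isg15 was 2.71-fold lower (log2 difference -1.44, SE 0.45, adjusted p = 0.034). Leaving out any of 7 of the 12 arrays ended the call, with adjusted p up to 0.081. Those arrays were the normal arrays of diet #1 Dnmt+/+, of both genotypes of diet #2 and of diet #3 Dnmt+/-, and the tumor arrays of both genotypes of diet #2 and of diet #3 Dnmt+/+. The difference stayed between -1.83 and -1.04 over the 12 fits.

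Trim25, a ligase of Isg15 and of the RNA sensor RIG-I, ranged from 1385 to 2860 in normal intestine (median 2250) and from 1274 to 1883 in tumors (median 1754). It was 1.26-fold lower (log2 difference -0.34, SE 0.10, adjusted p = 0.023), in all 6 pairs. The call ended on leaving out the tumor array of diet #2 Dnmt+/- (adjusted p = 0.055), of diet #2 Dnmt+/+ (0.056) or of diet #3 Dnmt+/- (0.053), or the normal array of diet #3 Dnmt+/- (0.057), and in the fit without normalization (0.11). Median scaling gave a difference of -0.56 (adjusted p = 0.0046). Usp18, the protease that removes Isg15, had a median of 479 in normal intestine and 174 in tumors. Its difference of -1.31 (SE 0.52, adjusted p = 0.079) was past the threshold with the replicate block (0.020), with median scaling (0.0093) and without normalization (0.028). It was also past it without the normal array of diet #1 Dnmt+/- (difference -1.75, 0.0098) or the tumor array of diet #1 Dnmt+/+ (-1.63, 0.034). Both arrays of its diet #1 Dnmt+/- pair were at the lowest value of those files, and the other 5 pairs were lower in the tumor.

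Of 6 tested antiviral effectors, 2 were lower in tumors and none was higher. Ifit1, which binds foreign RNA, ranged from 725 to 2098 in normal intestine (median 1733) and from 374 to 1002 in tumors (median 570). The tumor was lower in all 6 pairs, and the tissues overlapped only through the low normal array of diet #1 Dnmt+/-. Ifit1 was 2.68-fold lower (log2 difference -1.42, SE 0.27, adjusted p = 0.0035). Ifit3, its partner protein, ranged from 171 to 635 in normal intestine (median 465) and from 116 to 284 in tumors (median 148). It was 2.43-fold lower (log2 difference -1.28, SE 0.33, adjusted p = 0.014), in all 6 pairs. Its pair differences were -0.23 and -0.19 in diet #1, -1.85 and -2.45 in diet #2, and -1.02 and -1.95 in diet #3, for Dnmt+/- and Dnmt+/+ respectively.

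Rsad2, the enzyme viperin, had a difference of -0.69 (SE 0.30, adjusted p = 0.11). Mx2, a dynamin-like GTPase, had one of -0.46 (SE 0.19, adjusted p = 0.093). Without the tumor array of diet #1 Dnmt+/+ both passed, Rsad2 at -0.94 (adjusted p = 0.020) and Mx2 at -0.61 (adjusted p = 0.024). With the floor at the 40th percentile Mx2 was at -0.09 (adjusted p = 0.67). It fell below the filter with median scaling and without normalization. Its values in diets #2 and #3 lay between the floor (44.8) and 103. Isg20, a nuclease that degrades RNA, had a difference of 0.57 (SE 0.40, adjusted p = 0.30), and Adar, which edits double-stranded RNA, 0.19 (SE 0.33, adjusted p = 0.70). Their direction was not uniform over the pairs. After normalization, Adar was lower in the tumor in 4 pairs and higher in the 2 pairs of diet #1. As deposited, its tumor over normal for Dnmt+/- and Dnmt+/+ was 1.49 and 1.65 in diet #1. It was 0.91 and 1.19 in diet #2, and 1.12 and 0.70 in diet #3. The 3 genes below the brightness filter were dim in both tissues. Eif2ak2, the RNA-dependent kinase PKR, ranged from 48.9 to 154 in normal intestine and from the floor (44.8) to 103 in tumors. Ifit2 had a median of 75.3 in normal intestine and 66.9 in tumors, and Mx1 one of 66.9 and 56.1.

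Ifi35 and Ifi27 were lower in tumors with no overlap between tissues. Ifi35, a leucine zipper protein that partners with Nmi, ranged from 1747 to 2813 in normal intestine (median 2444) and from 626 to 1026 in tumors (median 841). It was 2.80-fold lower (log2 difference -1.49, SE 0.09, adjusted p = 8.6e-06), and its 6 pair differences lay between -1.73 and -1.14. Ifi27, a mitochondrial protein induced by type I interferon, ranged from 1325 to 2363 in normal intestine (median 1887) and from 352 to 1152 in tumors (median 934). It was 2.32-fold lower (log2 difference -1.21, SE 0.17, adjusted p = 0.00073). Its pair differences ran from -1.91 to -0.70, and the smallest 2 were those of diet #3.

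Of 6 tested interferon-inducible GTPases, which act on vacuoles that hold pathogens, 3 were lower in tumors and none was higher. Gbp3, a guanylate-binding protein, ranged from 427 to 750 in normal intestine (median 534) and from 172 to 344 in tumors (median 268), with no overlap. It was 2.20-fold lower (log2 difference -1.14, SE 0.13, adjusted p = 0.00023). Ifi35, Ifi27 and Gbp3 were the 3 of the 30 genes whose tumor arrays all lay below all normal arrays, a pattern that 5.06% of all features showed. Igtp ranged from 232 to 729 in normal intestine (median 476) and from 130 to 327 in tumors (median 187). It was 2.34-fold lower (log2 difference -1.23, SE 0.29, adjusted p = 0.0090), in all 6 pairs. The overlap came from the low normal array of diet #1 Dnmt+/- and the high tumor arrays of diet #1 Dnmt+/+ and diet #3 Dnmt+/-.

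Ifi47 ranged from 184 to 561 in normal intestine (median 393) and from 180 to 409 in tumors (median 303). It was 1.26-fold lower (log2 difference -0.33, SE 0.10, adjusted p = 0.029), in all 6 pairs. As deposited, the tumor was lower in 5 pairs and higher in 1, with ratios from 0.75 to 1.05, and the fit without normalization gave -0.14 (adjusted p = 0.53). The call also ended without any of 6 arrays, with adjusted p from 0.058 to 0.071: the normal arrays of diet #1 Dnmt+/+, diet #2 Dnmt+/- and both genotypes of diet #3, and the tumor arrays of diet #2 and diet #3 Dnmt+/+. Irgm1 (-0.44, adjusted p = 0.14), Iigp1 (-0.65, adjusted p = 0.33) and Gbp2 (-0.46, adjusted p = 0.43) did not pass. Gbp2 had an adjusted p of 0.049 with the replicate block. Without the tumor array of diet #1 Dnmt+/+, Irgm1 had a difference of -0.59 (adjusted p = 0.048). The probe set shared by Tgtp1 and Tgtp2, which can be read for neither gene alone, differed by -0.42 (SE 0.42, adjusted p = 0.48). The probe set shared by Gbp4 and Gbp8 was near the floor on all arrays.

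**Figure D3:**
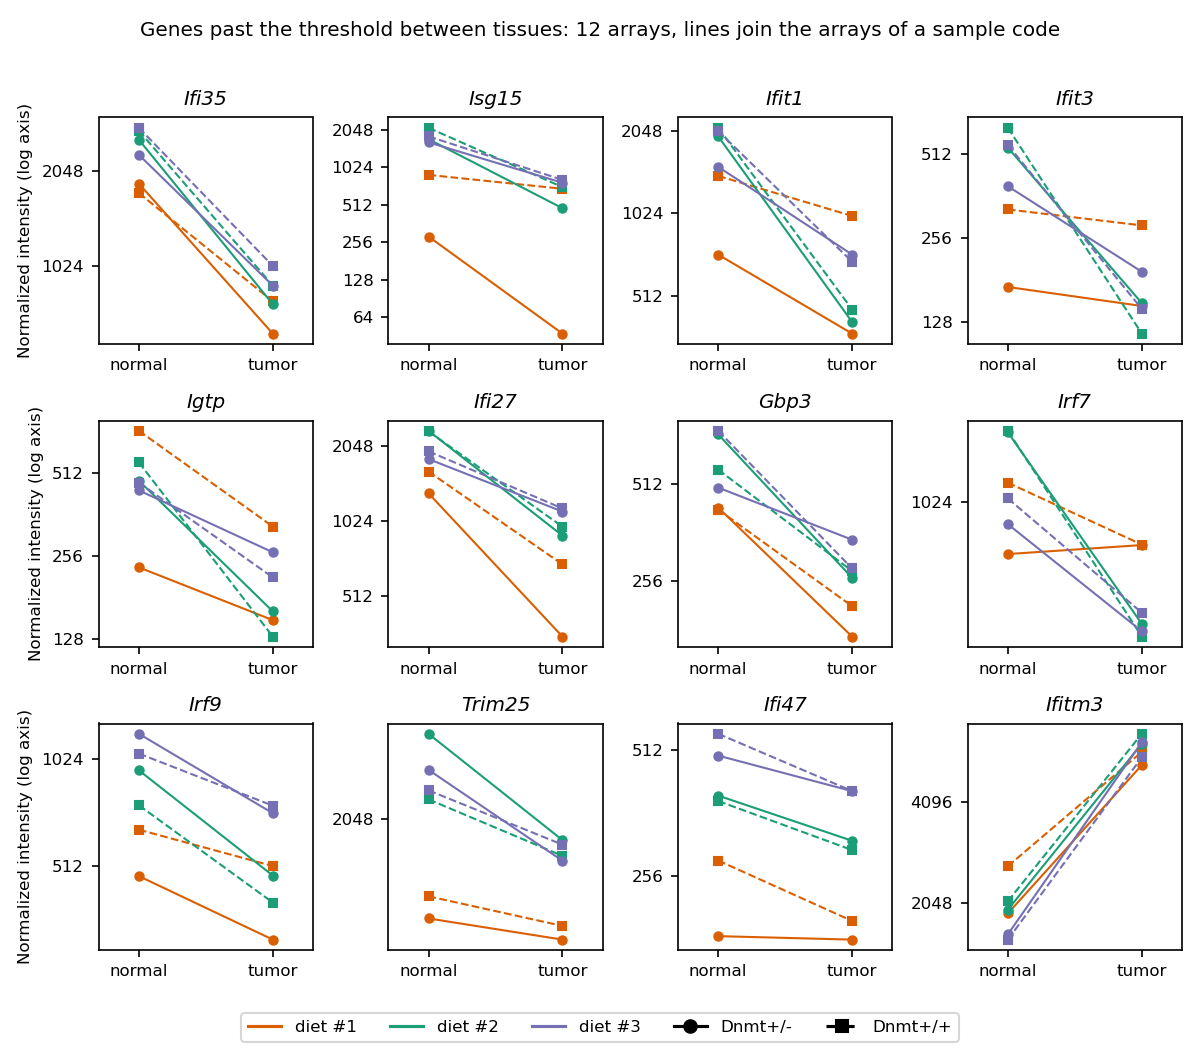
Normalized intensity (y axis, log scale) of the 12 genes past the threshold on each of the 12 arrays, normal at left and tumor at right; lines join the arrays of a sample code, colours are diets and line types are genotypes. Lines fall from normal to tumor in all 6 pairs for the lower genes apart from 1 pair of Irf7, and rise in all 6 for Ifitm3.

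Of the 3 Ifitm genes, which encode small membrane proteins that block virus entry, 1 was higher in tumors and none was lower. Ifitm3 ranged from 1590 to 2636 in normal intestine (median 1930) and from 5289 to 6558 in tumors (median 5957), with no overlap. It was 3.04-fold higher in tumors (log2 difference 1.61, SE 0.12, adjusted p = 2.0e-05), and its pair differences lay between 1.13 and 1.91. Of all features, 6.17% had all tumor arrays above all normal arrays. Ifitm2 had a difference of 0.65 (SE 0.34, adjusted p = 0.17; 0.050 and below the threshold without normalization), with 5 of 6 pairs higher in the tumor. Its deposited intensity was 1372 in the tumor of diet #1 Dnmt+/+ and between 120 and 267 in the other 5 tumors. The 3 genes lie close together on chromosome 7 (GRCm38.p6), and whether probes of one took up RNA of another was not tested.

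The tissue difference of Ifitm1 had opposite signs between diets. In diet #1 its deposited intensity was 228 and 500 in normal intestine and 1822 and 2578 in the tumors, for Dnmt+/- and Dnmt+/+ respectively. In diets #2 and #3 it lay between 110 and 138 in normal intestine and between 79.1 and 121 in tumors. The pair differences were 3.14 and 2.42 in diet #1, -0.57 and -0.54 in diet #2, and -0.29 and -0.35 in diet #3. Over all 12 arrays the difference was 0.63 (SE 0.51, adjusted p = 0.37). Without the diet #1 arrays it was -0.44 (SE 0.11, adjusted p = 0.023). The intensities of diet #1 were deposited in another format than those of diets #2 and #3, so diet #1 and that format cannot be told apart.

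**Figure D4:**
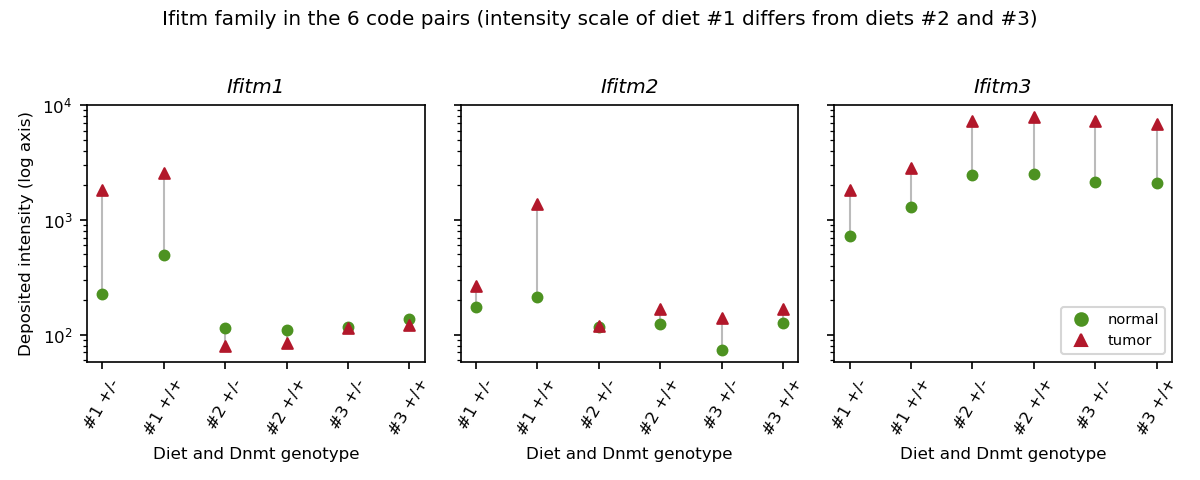
Deposited intensity (y axis, log scale) of Ifitm1, Ifitm2 and Ifitm3 in the normal (circle) and tumor (triangle) array of each code pair (x axis, diet number and Dnmt genotype). Ifitm3 is higher in all 6 tumors, while Ifitm1 is higher only in the 2 tumors of diet #1; levels of diet #1 are on another scale than those of the other diets.

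By code pair, fewer of the genes were lower in the tumor in diet #1 than in diets #2 and #3, a difference that was not tested. Of the 30 genes, 18 were lower in the tumor in the diet #1 Dnmt+/- pair, where 5 had no direction because both arrays were at the lowest value, and 18 in the diet #1 Dnmt+/+ pair. In diet #2 the counts were 24 and 25, and in diet #3 again 24 and 25. All features were lower in the tumor in 46.5% to 50.7% of cases per pair. The medians of the 30 genes were -0.11 and -0.26 in diet #1, -0.57 and -0.52 in diet #2, and -0.29 and -0.76 in diet #3. A separate fit in each diet gave 0 calls in diet #1, 12 in diet #2 and 4 in diet #3, against 0%, 22.2% and 7.73% of all features. Ifi35 differed by -1.36, -1.68 and -1.42 in the 3 diets, and Ifit3 by -0.21, -2.15 and -1.48.

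**Figure D5:**
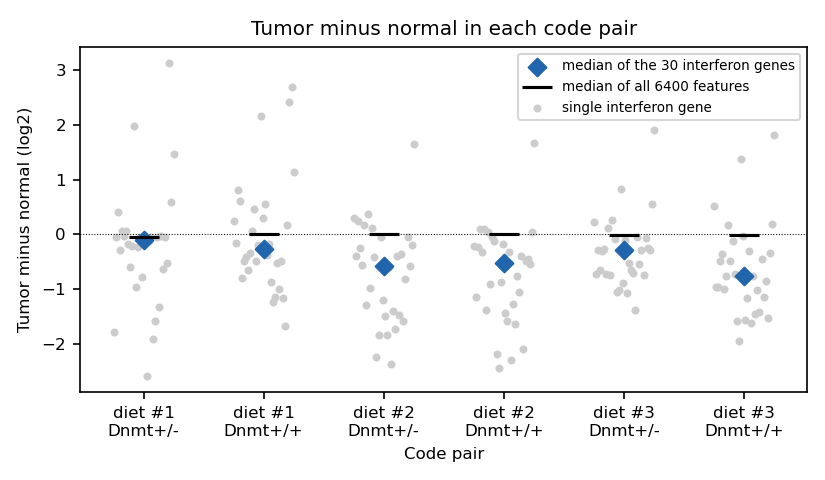
Tumor minus normal difference (y axis, log2) in each of the 6 code pairs (x axis) for the 30 tested genes (grey points), with their median (diamond) and the median of all 6400 features (bar). The diamonds run from -0.76 to -0.11 and the bars from -0.05 to 0.0052; the bar at -0.05 is that of the diet #1 Dnmt+/- pair, where many values sit at the lowest value of both files.

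Between Dnmt+/- and Dnmt+/+ mice, 0 of the 30 genes passed the threshold by limma, and 2 had an unadjusted p below 0.05. Over all features 0.0156% (1 of 6400) passed, and 4.56% had an unadjusted p below 0.05. Isg15 was at -1.10 (SE 0.45, adjusted p = 0.92) and Ifnar2 at -0.84 (SE 0.35, adjusted p = 0.92), both lower in Dnmt+/-. For Isg15 the 2 diet #1 Dnmt+/- arrays, at 285 and 47.4, were the lowest of the 12. The median of the 30 genes was -0.15 over all 12 arrays and 0.05 without diet #1. The 95% intervals of 20 of the 30 genes lay within a 2-fold change in either direction, and those of the other 10 reached beyond it.

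Between diet #3 and diet #2, 0 of the 30 genes passed by limma, against 4.28% of all features (1.55% lower and 2.73% higher in diet #3). An unadjusted p below 0.05 was found for 4 of the 30 genes and for 21.7% of all features. These were Ifi47 (0.43, SE 0.12, adjusted p = 0.079), Irgm1 (0.83, SE 0.26, adjusted p = 0.10), Irf9 (0.58, SE 0.19, adjusted p = 0.11) and Irf8 (0.42, SE 0.18, adjusted p = 0.22), all with the higher level in diet #3. With the replicate block Ifi47 passed (adjusted p = 0.046). Irf9 passed without the diet #1 arrays (0.048), and Irgm1 passed without the tumor array of diet #3 Dnmt+/+ (difference 1.13, adjusted p = 0.038). The median of the 30 genes was 0.07, and 13 of the 30 intervals reached a 2-fold change.

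Whether the tissue difference itself varied was tested with interaction terms. Between genotypes, 0 of the 30 genes and 0% of all features passed by limma, while 1 of the 30 and 2.80% of all features had an unadjusted p below 0.05. That gene was Mx2, at -0.99 (SE 0.23, adjusted p = 1). Its pair differences were -0.78, -1.20 and -0.90 in Dnmt+/- and 0.29, -0.17 and -0.03 in Dnmt+/+. Mx2 was dim in diets #2 and #3, between the floor (44.8) and 103, against 156 to 309 in diet #1. The Dnmt+/- tumors of diets #2 and #3 held 44.8 and 46.6. As deposited, tumor over normal was 0.59, 0.30 and 0.56 in Dnmt+/- and 1.35, 1.06 and 1.13 in Dnmt+/+. Between diets #3 and #2, 0 of the 30 genes passed, against 0.766% of all features (0.172% lower and 0.594% higher), and 7 of the 30 and 14.3% of all features had an unadjusted p below 0.05. Usp18, Ifit1, Igtp, Ifi27, Isg15 and Irf7 had interaction terms from 0.59 to 1.20, with adjusted p from 0.20 to 0.34; for these 6 the lower level in the tumor was less pronounced in diet #3 by the point estimate. Isg20 had the largest term, 1.57 (SE 0.33, adjusted p = 0.13), with pair differences of -0.05 and -0.87 in diet #2 and 0.83 and 1.39 in diet #3 after normalization. The intervals of 19 of the 30 diet terms and 21 of the 30 genotype terms reached a 2-fold change, so a change of that size was not excluded for them.

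Genes around the pathway, from lists drawn up beside the 39, gave these counts for the tissue comparison. Over all features, 16.9% were lower and 18.2% higher in tumors. Of 12 tested genes of antigen processing, 8 were lower and 0 higher in tumors, with a list median of -0.40. They included the immunoproteasome subunits Psmb9 (-1.58, SE 0.18, adjusted p = 0.00020) and Psmb8 (-1.08, SE 0.12, adjusted p = 0.00021), and Tap2 (-1.27, SE 0.24, adjusted p = 0.0029), a chain of the peptide transporter. Of 20 tested other interferon-stimulated genes, among which Psmb8 was counted again, 6 were lower and 0 higher, with a median of -0.39. Samhd1, which breaks down deoxynucleotides, was lower by 2.69-fold (adjusted p = 9.5e-05), Gbp7 by 2.64-fold (adjusted p = 0.0058) and Ifi30, a lysosomal thiol reductase, by 2.22-fold (adjusted p = 0.00013).

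Upstream of the receptors, 1 of 10 tested genes was lower, the kinase Tbk1 (-0.58, adjusted p = 0.0024), and 1 was higher, the NF-kappa-B subunit Rela (0.45, adjusted p = 0.014). Of 9 interferon genes on the array, Ifna2, Ifna5, Ifna9 and Ifnab were bright enough to be tested, and none passed (differences from -0.33 to 0.16, adjusted p from 0.32 to 0.83). Probe sets of this family can share targets. The other 5 were below the filter, among them Ifng, at the floor on 10 of 12 arrays, and Ifnb1, on 5. Among 17 tested Jak-Stat genes and their inhibitors, Stat6 (-0.44, adjusted p = 0.0027) and Jak2 (-0.42, adjusted p = 0.0024) were lower. Socs3, an inhibitor of the relay (0.62, adjusted p = 0.012), and Jak3 (0.28, adjusted p = 0.048) were higher. In both the upstream and the Jak-Stat list, the shares lower and higher were below those of all features (16.9% and 18.2%).

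Some markers of cell types moved with tissue too. Of all features, 16.9% were lower and 18.2% higher in tumors. The counts below for myeloid, B and plasma cell, endothelial and enterocyte markers were not far from these shares. Of 11 tested T and intraepithelial lymphocyte markers, 5 were lower and 0 higher in tumors, with a list median of -0.87. Among the lower were Ccl5 (-1.48, adjusted p = 0.0050) and Cd4 (-1.14, adjusted p = 0.016). Thy1 went the other way without passing (0.63, adjusted p = 0.20), with 5 pairs higher in the tumor and 0 lower. The summed normalized intensity of the 11 markers was 3291 to 5227 in normal intestine and 1870 to 2801 in tumors, with no overlap. The defining markers Cd3d, Cd3e, Cd3g, Cd8a and Cd8b1 were below the filter, and Cd2 was at the floor on 9 of 12 arrays. Of 9 myeloid markers 2 were lower and 2 higher, of 6 B and plasma cell markers 1 was lower and 0 higher, and of 6 endothelial markers 1 was lower and 1 higher. Of 7 fibroblast markers 5 were higher and 0 lower. Of 6 epithelial markers 3 were higher and 0 lower, with summed intensities of 26364 to 29698 in normal intestine and 55297 to 59182 in tumors. The 3 higher were the keratins Krt8 (0.83), Krt18 (2.50) and Krt19 (1.15). Epcam (0.23, adjusted p = 0.069), Cdh1 (0.06, adjusted p = 0.59) and Cdx1 (0.32, adjusted p = 0.10) did not pass. Epcam had medians of 3969 in normal intestine and 4795 in tumors, against 10162 and 22368 for Krt19. Of 8 enterocyte markers 2 were lower and 1 was higher. Their summed intensity was 102691 to 144574 in normal intestine and 91852 to 118912 in tumors. Enterocyte markers were thus bright in both tissues. The part of these shifts in the interferon result was not tested.

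Technical features of the arrays ran along the diets. On the 4 arrays of diet #1 the mean deposited intensity was 306 to 403, and 5109 to 5739 probe sets per array held the value 50, while the arrays of the other diets had a mean of 1000 and no such value. Exocrine pancreas markers summed to 213479 and 232191 on the 2 normal arrays of diet #2 and to 23477 to 26982 on the other 10 arrays. Of these markers, Zg16 alone had medians of 23186 in normal intestine and 21831 in tumors, and it made up most of the lower sums. Without the 4 arrays of diet #2, 5 of the 30 genes passed between tissues, Ifi35, Ifi27, Gbp3, Ifit1 and Ifitm3, against 20.1% of all features. Without those of diet #1, 17 passed, 16 lower and 1 higher, against 32.1% of all features. The ratio of 5′ to 3′ control probe sets, a sign of RNA quality, was for Gapdh 0.84 to 1.13 in normal intestine and 0.83 to 1.10 in tumors. It was 1.07 to 1.13 on the 4 arrays of diet #2, the diet with most calls when fitted alone, and 0.83 to 1.00 on the other 8. The part of these features in the interferon result was not tested.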

How the data were processed

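RNA was measured on 12 single-colour arrays. The authors deposited a linear intensity for each probe set, made with software not given in the sources used here. From them, 66 control probe sets were removed, the rest quantile normalized, floored at their 20th percentile (44.8) and put on the log2 scale. Probe sets in the lowest 40% by mean were left out, and the brightest stood for its gene, which left 6400 features, 5648 with a gene name.

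Differences were tested with limma 3.58.1 in R 4.3.3 (lmFit, eBayes) with tissue, diet and genotype as terms, and p-values were adjusted by Benjamini-Hochberg over all features. Tissue by diet used only diets 2 and 3. Comparisons with diet 1 are given as values only. The 38 member probe sets matched RefSeq names by Entrez ID, and 0 symbols changed. The members and all lists were chosen with earlier results of these data known. The rule for named genes took every member, and of each pathway list up to 3 genes past the threshold with the largest difference. Jak3, Ccl5, Cd4, Thy1 and the named epithelial markers fall outside this rule. Their values were known when they were picked.

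The sample codes in the titles pair the arrays. Deviations from the tissue mean correlated at 0.46 to 0.68 within every pair, and at 0.10 to 0.11 once diet and genotype were removed. The correlation within codes used for genotype and diet as a random block was -0.16. No array was a near copy of another (r at most 0.982 within a tissue). The alternatives comprised other normalizations, floors, filters, probe set rules and variances, the code as a block, fits without or within diets and genotypes, and each array left out in turn. The scripts were tested on simulated data.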

Additional observations from a re-analysis of the deposited data

Results flagged for a closer look

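On single arrays, 6 of 60 groups of 6 values held an array far below the rest. All 6 were arrays of diet #1 Dnmt+/- at the lowest value of their files. In the tumor array these were Ifnar1, Isg15 and Usp18, each at a normalized intensity of 47.4 where the other 5 tumors held at least 201, 482 and 152. In the normal array these were Usp18, Gbp2 and Iigp1, each at 48.9 where the other 5 held at least 414, 217 and 259. All 6 values were deposited as 50, which 5571 probe sets of this tumor array and 5739 of this normal array shared. The distance from the rest thus depends on where normalization places that tie. For Ifnar1, deposited values of 50 in the tumor and 57.7 in the normal array became 47.4 and 163.

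Tumor minus normal ran in opposite directions between diets, in both pairs of each, for 6 genes; only the comparison of diets #3 and #2 was tested, and each diet has 2 pairs. Ifitm1 differed by 3.34 on the log2 scale between diets #1 and #2 and by 3.09 between #1 and #3. Adar differed by 1.49 and 1.63 in the same comparisons, with higher tumors in diet #1, where the normal array of Dnmt+/- was at the lowest value of its file. Irf8 differed by -0.61 and -0.56, with lower tumors in diet #1. Ifngr1 differed by 1.23 between diets #1 and #3, and Irf5 by -0.40 between #1 and #2. The comparisons with diet #1 were not tested, and diet #1 and its file format cannot be told apart. Between diets #3 and #2, Isg20 differed by 1.57 and Irf5 by -0.76, and neither passed the test of the difference by limma. These directions are after normalization. As deposited, 6 of the 10 comparisons kept opposite directions, and the 4 that did not were both of Adar, Irf5 between diets #1 and #2, and Isg20.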

How the results depend on the processing

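Between tissues, the count past the threshold (12) was 15 with median scaling, 11 with no normalization (9 lower, 2 higher), 11 with no filter and 16 with the replicate block, against 35.2%, 37.4%, 32.6%, 22.2% and 32.9% of all features in these fits, the main one first. Median scaling moved the median of all features to -0.10 and no normalization to 0.13. With fewer arrays, the count was 5 without diet #2 (20.1% of all features), 0 within diet #1 (0%), 4 within diet #3 (7.73%), 2 within Dnmt+/- (2.39%) and 4 within Dnmt+/+ (5.52%). Without normalization, Trim25, Irf9 and Ifi47 lost their calls. Each array left out in turn gave 9 to 16 (29.4% to 34.0%). Ifitm1 reversed to -0.44 without diet #1. For diet #3 against #2, the count of 0 became 1 with the lowest 60% left out, with the replicate block, and without diet #1, and was 0 to 1 with an array left out. Genotype and both interactions stayed at 0 in every fit run. The block changed no other call than those named above. Diet #2 is not left out where diets #3 and #2 are compared, and tissue by diet could not be fitted without diet #2.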
